A study of Mus musculus with 6 samples.

Results

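The genes described here serve protein folding and degradation in the endoplasmic reticulum (ER) of pancreatic islets. They are a fixed set of 37 genes out of the 18193 that had a probe set of their own on the arrays. All probe sets annotated to exactly 1 of the 37 symbols were taken, 87 of the 45037 tested, and the brightest over all arrays stood for its gene. RNA from islets of Langerhans of 6 mice was measured on Affymetrix arrays, 1 array per mouse. The tested islets came from 3 mice of genotype hIAPP Tg (arrays 4 to 6), which carry human islet amyloid polypeptide, and were set against islets of 3 mice of genotype wild type (arrays 1 to 3). All 6 mice were 12 weeks old and ate standard chow. FVB/N-Tg(Ins2-IAPP)RFHSoel/J was entered as strain for both genotypes, and this name places the transgene under an insulin gene promoter, which is active in beta cells. Transgene dose and sex were not stated in the labels. The mouse probe sets do not report the human transcript, so the genotype labels could not be checked by it.

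Insulin, amylin and the other islet hormones enter the ER while they are being made, lose their signal peptide there and fold. Insulin and amylin also form disulfide bonds there as they fold. Chaperones such as BiP and the protein disulfide isomerases assist this, and chains that fail to fold are drawn back to the cytosol and destroyed by ER-associated degradation. The unfolded protein response, with its sensors IRE1, ATF6 and PERK, raises the genes of both systems when unfolded protein builds up. Beta cells depend on it because insulin is such a large part of what they make. Human amylin forms amyloid and has been studied as a load on this system, which makes the set a natural question for the comparison of genotypes.

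Known control elements of these genes are short enough to be read directly in their promoters. ATF6 and XBP1 act through the ER stress response element (ERSE), which is CCAAT and CCACG with 9 bases of any kind between them, and through the related ERSE-II, which is ATTGG and CCACG with 1 base between them. RefSeq promoter windows (GRCm38.p6) of 300 bases, with 250 bases before the annotated start, were on hand for 32 of the 37 genes. No window was on hand for Hyou1, Manf, Derl1, Atf6 and Sec11c. An exact ERSE on either strand was found in 9 of the 32 (28.1%), against 0.137% of the 27025 genes with a window. ERSE-II was found in 2 of the 32 (6.25%), against 0.0444% of all. The XBP1 core element TGACGTGG was found in 1 of the 32 (3.12%), that of Txndc11, against 0.714% of all. The window of Hspa5, which encodes BiP, lies on the plus strand at chr2:34771840-34772139 and is shown whole, since this gene is the classical reporter of the response. Capitals mark the fixed letters of its exact ERSE, which begins 65 bases before the start.
Hspa5: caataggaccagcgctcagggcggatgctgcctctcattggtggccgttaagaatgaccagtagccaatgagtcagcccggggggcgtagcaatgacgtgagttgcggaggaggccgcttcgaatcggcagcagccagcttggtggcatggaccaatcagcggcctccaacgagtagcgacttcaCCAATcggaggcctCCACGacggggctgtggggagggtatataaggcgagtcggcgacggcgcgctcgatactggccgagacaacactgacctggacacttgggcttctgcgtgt

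The other exact ERSE matches are shown with 15 bases on each side, on the strand of the gene, to allow the boxes and the bases between them to be compared. Capitals again mark the fixed letters, and a match that reads CGTGG first and ATTGG second is the element on the opposite strand. Hsp90b1 held 2 matches, one in each direction.
Hsp90b1 (chr10:86705623-86705671, minus strand): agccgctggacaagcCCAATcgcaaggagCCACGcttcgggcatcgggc
Hsp90b1 (chr10:86705518-86705566, minus strand): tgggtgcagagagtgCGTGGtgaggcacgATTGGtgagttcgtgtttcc
Dnajc3 (chr14:118937812-118937860, plus strand): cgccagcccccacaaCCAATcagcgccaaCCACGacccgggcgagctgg
Pdia6 (chr12:17266476-17266524, plus strand): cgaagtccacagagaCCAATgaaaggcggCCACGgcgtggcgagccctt
Creld2 (chr15:88819505-88819553, plus strand): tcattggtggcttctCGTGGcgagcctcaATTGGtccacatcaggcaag
Calr (chr8:84847060-84847108, minus strand): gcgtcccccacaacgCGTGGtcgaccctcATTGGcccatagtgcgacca
Canx (chr11:50325785-50325833, minus strand): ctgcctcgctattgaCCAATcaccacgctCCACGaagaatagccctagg
Syvn1 (chr19:6046517-6046565, plus strand): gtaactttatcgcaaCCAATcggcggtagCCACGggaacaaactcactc
Derl3 (chr10:75893227-75893275, plus strand): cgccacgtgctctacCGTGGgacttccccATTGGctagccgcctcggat

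The 2 matches to ERSE-II are shown in the same way.
Dnajb11 (chr16:22857837-22857877, plus strand): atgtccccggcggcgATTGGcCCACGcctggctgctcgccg
Herpud1 (chr8:94386362-94386402, plus strand): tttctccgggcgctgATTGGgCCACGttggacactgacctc
These matches describe letters in a window and say nothing on whether a factor was bound in these islets.

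None of the 37 genes passed the test between genotypes. Each was tested on the deposited log2 values with limma, with Benjamini-Hochberg adjustment over all 45037 probe sets and a threshold of 0.05. The smallest adjusted p over the brightest probe sets was 0.552, and over all 87 member probe sets 0.449. In all, 0.044% of genes passed this threshold on their brightest probe set, or 8 of 18193, and 0.0289% of all probe sets. At an unadjusted p under 0.05, 3 members were higher and 0 were lower in hIAPP_Tg islets, where 5.02% of all genes were higher and 3.45% lower (8.48% in either direction). Among the genes with a mean level within the range of the members, 7.79% were higher. An ordinary linear model without moderation also called 0 members after adjustment and 1 at an unadjusted p under 0.05. In limma that count was 7 without hIAPP_Tg array 4, 5 without wild-type array 2, 1 without wild-type array 3 and 0 with quantile normalization. These counts cover either direction, and Derl3 (-0.52) was the only lower one of the 7. The share of all genes was not counted in these refits, so the counts have no background beside them.

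The differences were small and mostly of 1 sign. On the log2 scale, hIAPP_Tg minus wild type, they ran from -0.23 to 0.27 with a median of 0.10, or from 0.851-fold to 1.203-fold. Of the 37 genes 32 lay above 0, 3 below and 2 at 0, against 48.0% above and 40.5% below among all genes, whose median difference was 0. Part of this lean was shared by other genes in the same range of levels. Members had mean levels of 7.80 to 12.97 over all arrays, and the 6058 genes in that range had a median difference of 0.067, with 61.1% above 0 and 29.2% below. These genes were not matched to the members in level and were dimmer on average. Their mean was 9.208 in wild-type islets, against 10.968 for the members. The genotypes did not overlap, with every hIAPP_Tg array above every wild-type array, for 4 of the 37 genes, against 4.49% of all genes and 6.85% of those in the same range of levels. In the opposite direction the count was 0, against 3.22% of all genes. In each of the 4, Dnajc10, Os9, Xbp1 and Ssr3, the gap between the genotypes was 0.1, the step to which the values are rounded. Counted in either direction, 1 member did not overlap with quantile normalization. With fewer arrays there were 11 without hIAPP_Tg array 4, including Derl3, which was lower, and 9 without wild-type array 2. With an array left out, genotypes overlap less readily for any gene, and the share of all genes was not counted in these settings.

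**Figure D1:**
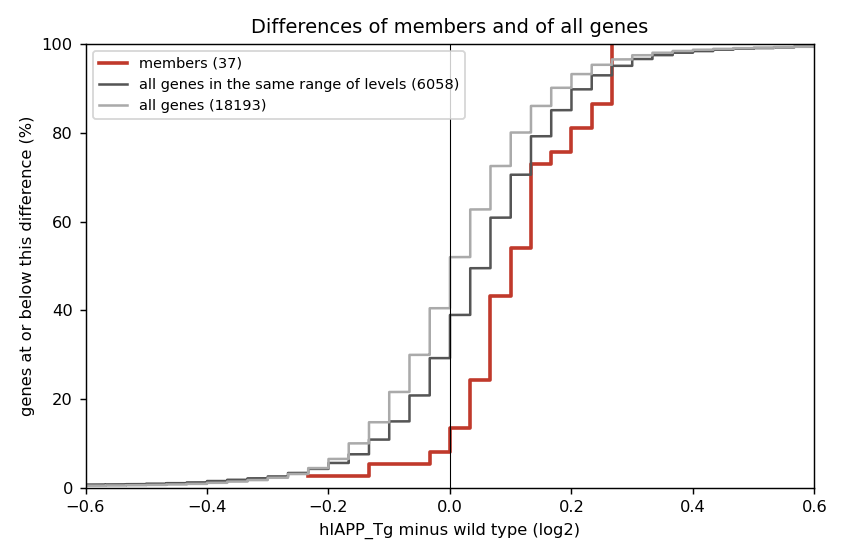
Share of genes (vertical axis, percent) at or below a given difference, hIAPP_Tg minus wild type on the log2 scale (horizontal axis), for the 37 members (red), the 6058 genes in the same range of levels (dark grey) and all 18193 genes (light grey). The curve of the members lies to the right of both others near 0, with a median of 0.10, against 0.067 and 0, and ends at 0.27.

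On the brightest probe sets, the arrays bounded the size of a change for most members. For 31 of the 37 genes the 95% interval of the difference lay within 1.5-fold in either direction. That is a smaller share than the 91.7% of all genes. The interval that reached furthest out was that of Derl3, from -0.88 to 0.42. The others that reached past 1.5-fold were Fkbp14 (-0.82 to 0.55), Herpud1 (-0.15 to 0.68), Pdia3 (-0.11 to 0.65), Hyou1 (-0.13 to 0.60) and Fkbp11 (-0.45 to 0.588). Some dimmer probe sets of the 31 genes also reached past it, such as those of Hsp90b1 (-0.83 to -0.04), Derl2 (-0.79 to 0.39) and Ern1 (-0.34 to 1.01).

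**Figure D2:**
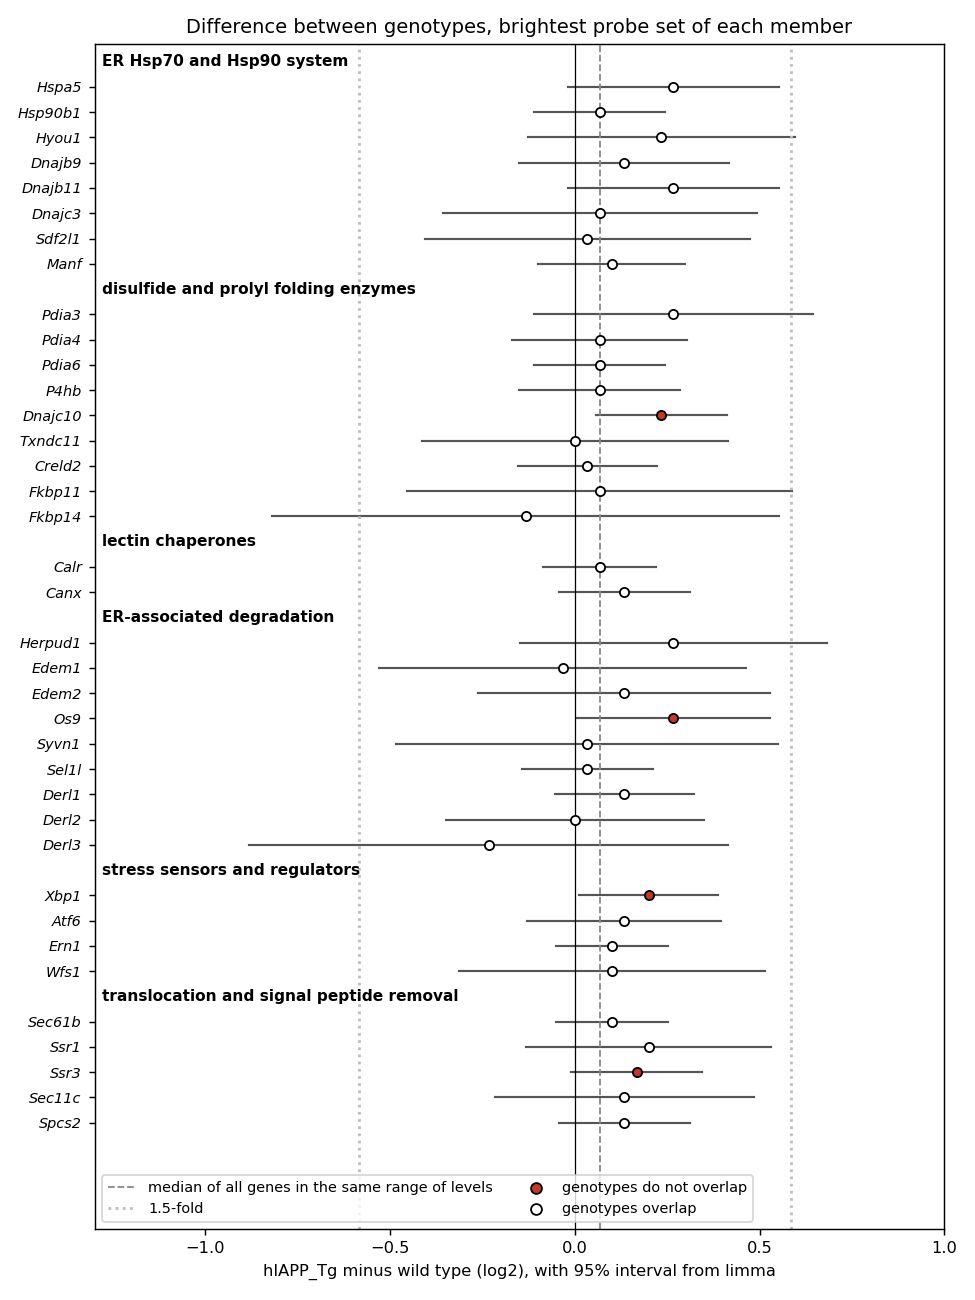
Difference of each member, hIAPP_Tg minus wild type on the log2 scale (horizontal axis), with its 95% interval from limma, grouped by role. Filled points mark Dnajc10, Os9, Xbp1 and Ssr3, whose genotypes do not overlap. The dashed line is the median of all genes in the same range of levels, 0.067, and the dotted lines mark 1.5-fold.

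All 8 genes of the ER Hsp70 and Hsp90 system lay above 0, with a median of 0.12, and 0 of them passed the test. Hspa5, the Hsp70 of this compartment and holder of the single exact ERSE shown above, was at 12.6, 13.0 and 12.8 on the hIAPP_Tg arrays, against 12.4, 12.6 and 12.6 on the wild-type arrays. The lowest hIAPP_Tg value equalled the highest wild-type value, and the difference was 0.27 (SE 0.12, limma adjusted p = 0.632). Dnajb11, a J-protein that hands unfolded chains to BiP, was at 10.1, 10.4 and 10.4 in hIAPP_Tg islets, against 9.9, 10.2 and 10.0 in wild-type islets. Here too the genotypes overlapped, with a difference of 0.27 (SE 0.12, limma adjusted p = 0.632).

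Hyou1, a large Hsp70 relative that recharges BiP with nucleotide, differed by 0.23, and its hIAPP_Tg values of 11.0, 10.5 and 10.7 overlapped the wild-type values of 10.6, 10.3 and 10.6. Hsp90b1, the Hsp90 of the ER (GRP94), differed by 0.067 on its brightest probe set. The J-proteins Dnajb9, which restrains IRE1, and Dnajc3, which also damps PERK, differed by 0.13 and 0.067. Sdf2l1, a partner of Dnajb11, differed by 0.033 and Manf, a BiP-binding protein that beta cells secrete, by 0.10. For Dnajc3 the wild-type arrays alone spread from 11.7 to 12.4, and the 3 hIAPP_Tg arrays lay inside that range.

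Among the 9 disulfide and prolyl folding enzymes 7 lay above 0, 1 below and 1 at 0, with a median of 0.067. Dnajc10, a disulfide reductase that unlocks misfolded chains for degradation, separated the genotypes on each of its probe sets. Its brightest probe set was at 10.5, 10.6 and 10.5 on the hIAPP_Tg arrays, against 10.2, 10.3 and 10.4 on the wild-type arrays. Every hIAPP_Tg array was above every wild-type array, and the difference was 0.23 (SE 0.073, limma unadjusted p = 0.0177, adjusted p = 0.552). Pdia3, the disulfide isomerase that works with calnexin and calreticulin, was at 13.1, 12.9 and 12.9, against 12.4, 13.0 and 12.7 in wild-type islets. The difference of 0.27 (SE 0.16, limma adjusted p = 0.711) was smaller than the range of the wild-type arrays.

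The disulfide isomerases Pdia4, Pdia6 and P4hb each differed by 0.067, and Creld2, a secreted folding factor of the stress response, by 0.033. Txndc11, a thioredoxin-like protein, differed by 0. The prolyl isomerase gene Fkbp11 was at 10.1, 9.2 and 9.6 in hIAPP_Tg islets, against 9.6, 9.6 and 9.5 in wild-type islets, so that the hIAPP_Tg arrays lay on both sides of the wild-type ones. Its relative Fkbp14 differed by -0.13, with 7.7, 8.1 and 7.4 against 7.3, 8.2 and 8.1. The lectin chaperones, which hold glycoproteins while they fold, differed by 0.067 for the soluble Calr and by 0.13 for the membrane-bound Canx.

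Of the 9 genes of ER-associated degradation 6 lay above 0, 2 below and 1 at 0, with a median of 0.033. Os9, a lectin that delivers misfolded glycoproteins to the ubiquitin ligase, was at 9.8, 9.4 and 9.5 in hIAPP_Tg islets, against 9.3 on all 3 wild-type arrays. The genotypes did not overlap, and the difference was 0.27 (SE 0.11, limma unadjusted p = 0.0471, adjusted p = 0.632). Without hIAPP_Tg array 4 it was 0.15. Herpud1, a membrane scaffold of the ligase complex with an ERSE-II in its promoter, was at 10.9, 11.0 and 10.9, against 10.3, 11.0 and 10.7 in wild-type islets. Its difference of 0.27 (SE 0.17, limma adjusted p = 0.72) came with overlapping genotypes.

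The ubiquitin ligase gene Syvn1 and its adaptor Sel1l each differed by 0.033. Syvn1 ran from 9.3 to 9.6 in hIAPP_Tg islets and from 9.0 to 9.8 in wild-type islets. Edem1 and Edem2, which trim mannose from failed glycoproteins, differed by -0.033 and 0.13. Of the derlins, membrane proteins of the exit channel, Derl1 differed by 0.13, Derl2 by 0 and Derl3 by -0.23. Derl3 was at 9.1, 8.0 and 8.5 in hIAPP_Tg islets, against 8.6, 8.9 and 8.8 in wild-type islets (SE 0.27, limma adjusted p = 0.83). Its highest and its lowest value were both on hIAPP_Tg arrays.

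**Figure D3:**
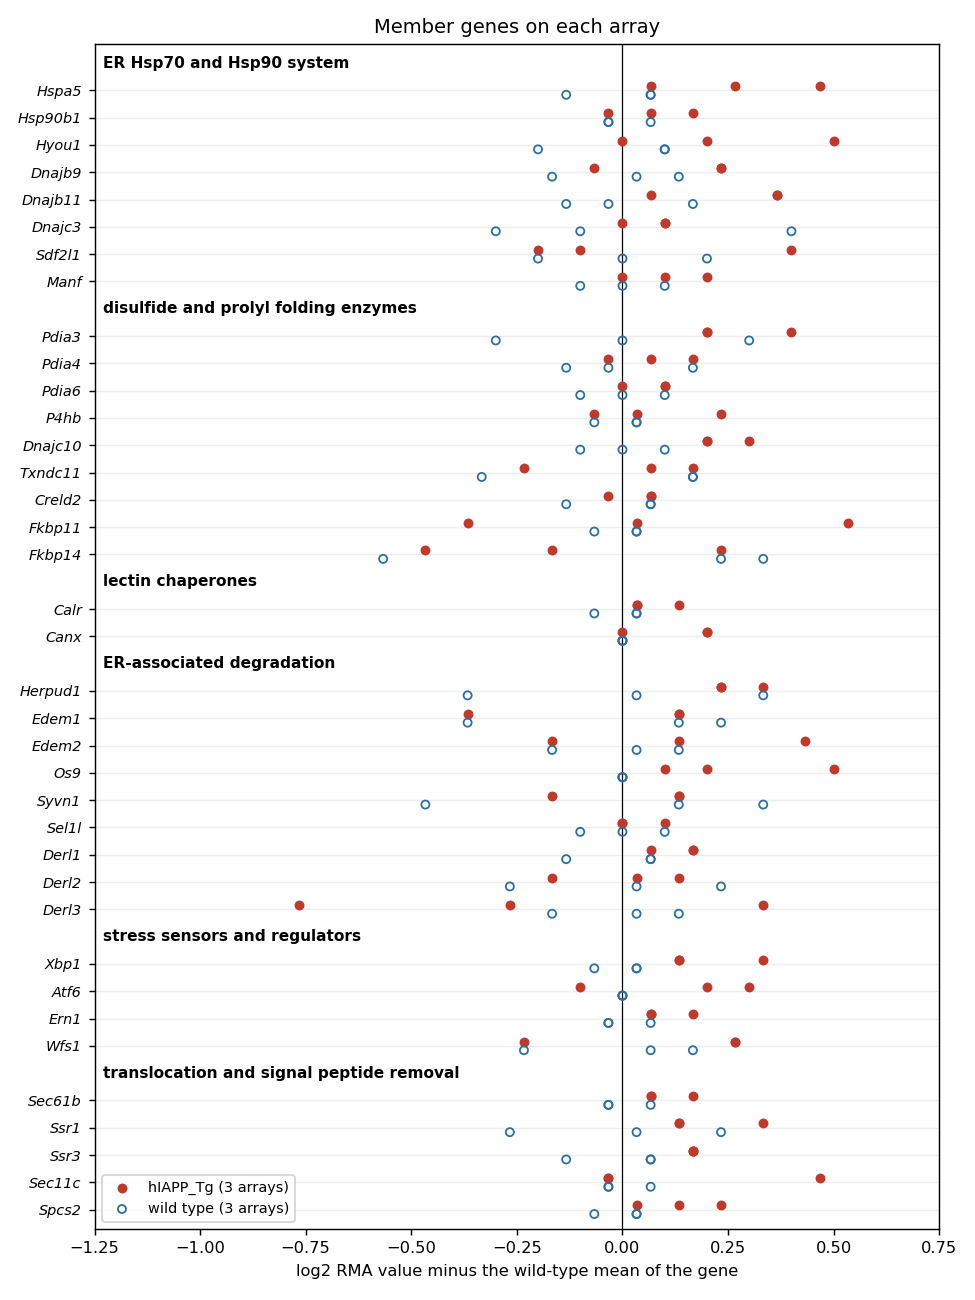
Value of each member on each array as log2 RMA value minus its wild-type mean (horizontal axis), grouped by role, with hIAPP_Tg arrays as filled red points above the open blue points of the wild-type arrays. Equal values lie on top of each other. Fkbp11 and Derl3 have hIAPP_Tg points on both sides of all wild-type points, while Dnajc10, Os9, Xbp1 and Ssr3 have none that overlap.

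All 4 sensors and regulators lay above 0, with a median of 0.12. Xbp1, the transcription factor made active when IRE1 splices its mRNA, was at 12.6, 12.4 and 12.4 in hIAPP_Tg islets, against 12.3, 12.2 and 12.3 in wild-type islets. The genotypes did not overlap, and the difference was 0.20 (SE 0.078, limma unadjusted p = 0.0408, adjusted p = 0.62). These values are total Xbp1 signal, since the deposited table does not tell the spliced form from the unspliced. Atf6, a membrane-held transcription factor freed by stress, was at 9.0, 9.3 and 9.4, against 9.1 on all 3 wild-type arrays, and differed by 0.13. Ern1, which encodes IRE1, and Wfs1, the ER membrane protein lost in Wolfram syndrome, each differed by 0.10. Sensors act through cleavage, splicing and phosphorylation, none of which these arrays measured.

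All 5 genes of translocation and signal peptide removal lay above 0, with a median of 0.13. Ssr3, a subunit of the translocon-associated complex that helps preproinsulin into the ER, was at 11.7 on all 3 hIAPP_Tg arrays, against 11.4, 11.6 and 11.6 in wild-type islets. The genotypes did not overlap, and the difference was 0.17 (SE 0.073, limma unadjusted p = 0.0611, adjusted p = 0.632). Ssr1, of the same complex, differed by 0.20 with overlapping genotypes. The channel subunit Sec61b differed by 0.10, and the signal peptidase subunits Sec11c and Spcs2 by 0.13 each.

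Where a member had several probe sets, they did not always run the same way. Of the 28 members with more than 1, 11 had probe sets on both sides of 0. Over all 87 probe sets 66 lay above 0, 16 below and 5 at 0, against 44.7% above and 43.6% below among all probe sets. At an unadjusted p under 0.05, 10 were higher and 2 lower, where 3.82% of all probe sets were higher and 3.51% lower. All 3 probe sets of Dnajc10 were among the higher ones, with differences of 0.23, 0.27 and 0.37 and no overlap of genotypes in any. All 4 of Derl1 lay above 0, from 0.10 to 0.30, and the one at 0.30 had the smallest p of the members (limma unadjusted p = 0.0041, adjusted p = 0.449).

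Hspa5 and Hsp90b1 supplied both lower probe sets. The dimmest of Hspa5 was at 9.3, 9.4 and 9.4 on the hIAPP_Tg arrays, against 9.5, 9.5 and 9.7 on the wild-type arrays (limma unadjusted p = 0.0408, adjusted p = 0.62). The dimmer one of Hsp90b1 was at 11.8, 11.7 and 11.6, against 12.5, 11.9 and 12.0, a difference of -0.43 (SE 0.16; limma unadjusted p = 0.036, adjusted p = 0.62). In both cases every hIAPP_Tg array was below every wild-type array, while the brightest probe set of the same gene differed by 0.27 and by 0.067. Which part of the transcript each probe set reads was not analysed here. Averaged over its probe sets, Hsp90b1 differed by -0.18 and Dnajc10 by 0.29, and neither passed the test (limma adjusted p = 0.661 and 0.384).

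**Figure D4:**
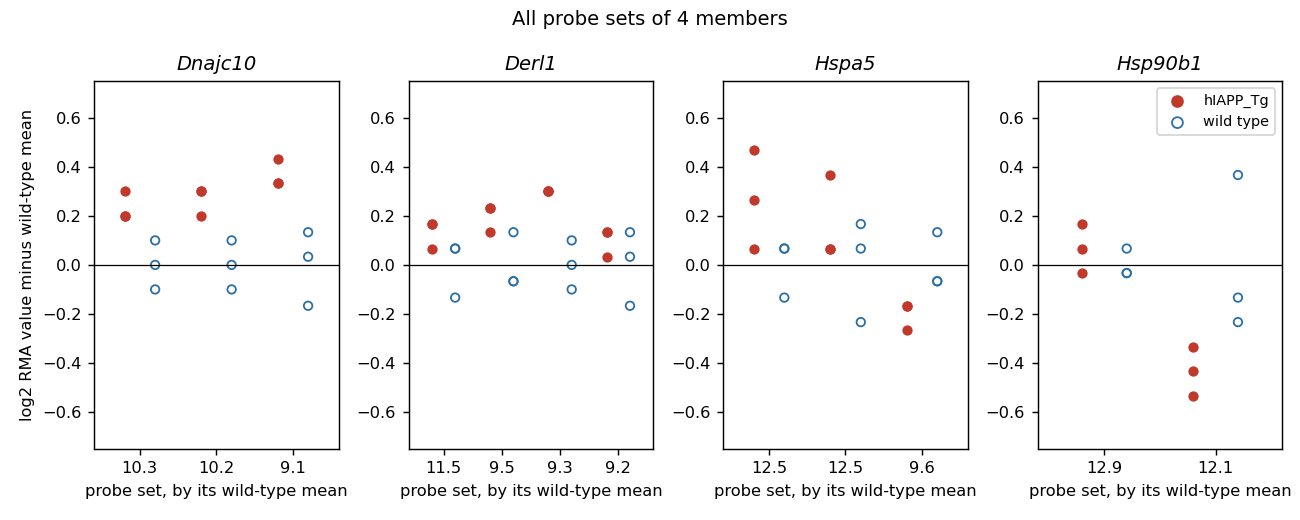
Values of every probe set of 4 members on each array, as log2 RMA value minus the wild-type mean (vertical axis), with probe sets ordered by their wild-type mean (horizontal axis). Filled red points are hIAPP_Tg arrays and open blue points wild-type arrays, and equal values lie on top of each other. Those of Dnajc10 agree in sign, while those of Hspa5 and Hsp90b1 lie on both sides of 0.

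The mean over all 37 members was 11.095, 11.065 and 11.062 on the hIAPP_Tg arrays, against 10.857, 11.065 and 10.984 on the wild-type arrays. The hIAPP_Tg arrays were close together (SD 0.018), and the wild-type arrays spread more widely (SD 0.105, n = 3 each). Wild-type array 1 was the low one and array 2 reached the hIAPP_Tg level, so the means did not separate the genotypes. By role, the means of the Hsp70 and Hsp90 system ran from 12.0 to 12.025 in hIAPP_Tg islets and from 11.838 to 11.9 in wild-type islets, without overlap. The sensors and regulators, at 10.025 to 10.175 against 9.95 to 10.0, and translocation and signal peptide removal, at 11.94 to 11.98 against 11.72 to 11.9, did not overlap either, which makes 3 of the 6 roles. Among the related lists described further on, 2 of 4 did not overlap, other ER folding genes (9.945 to 9.976 against 9.797 to 9.939) and other translocation and N-glycosylation genes (11.164 to 11.188 against 11.044 to 11.156). Of the 8 lists of cell type markers, 1 was higher and 3 were lower in hIAPP_Tg islets without overlap. Lists of other genes of like size and level were not drawn, so these counts have no background beside them. The means of ER-associated degradation ran from 10.044 to 10.144 in hIAPP_Tg islets and lay inside the wild-type range of 9.811 to 10.211. Over the genes in the same range of levels the means were 9.224 to 9.273 in hIAPP_Tg islets and 9.18 to 9.255 in wild-type islets.

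Wild-type array 1 was the lowest of its genotype for 21 of the 37 members (56.8%), against 29.8% of all genes and 36.3% of those in the same range of levels. Syvn1, Herpud1, Pdia3 and Fkbp14 were among the 21. The array was the highest for 2 members, Dnajc3 and Ern1, against 22.5% and 21.1%. Without that array the median difference of the members was 0.083, that of Herpud1 0.083 in place of 0.27, and that of Pdia3 0.12 in place of 0.27. Syvn1 then stood at -0.20, while Dnajc10 stood at 0.18 and Os9 at 0.27. The same array was the highest for stellate cell and fibroblast markers, whose mean was 9.088, 8.875 and 8.912 in hIAPP_Tg islets, against 9.537 on wild-type array 1 and 8.787 and 8.8 on the others. For markers of exocrine acinar cells it was the lowest of its genotype, at 10.41, against 11.643 and 11.962 on the others. The part of either cell type in the members' values was not tested.

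Markers of exocrine acinar cells, which also have a large ER, varied within each genotype. The mean over the 21 of 25 markers measured was 11.452, 9.324 and 10.581 on the hIAPP_Tg arrays, against 10.41, 11.643 and 11.962 on the wild-type arrays. Of the 21, 1 lay above 0 and 19 below, with a median difference of -0.97, and 0 passed the adjusted threshold. Within the hIAPP_Tg arrays it ran from array 4 through 6 down to 5, and 7 members, Derl3, Fkbp11, Sdf2l1, Edem2, Hyou1, Os9 and P4hb, followed that order without ties. That is 18.9% of the members, against 9.94% of all genes and 8.67% of those in the same range of levels. The opposite order, also without ties, held for 2 members, Hspa5 and Manf (5.41%), against 10.0% and 15.7%. On the wild-type arrays the acinar mean rose from array 1 through 2 to 3, and the 7 members did not follow it. There Derl3, Sdf2l1 and Edem2 were lowest on array 1 but highest on array 2. Fkbp11 and P4hb were lowest on array 3, Hyou1 was lowest on array 2, and Os9 was equal on all 3. With the acinar mean as a covariate Derl3 differed by 0.10 and not by -0.23, and Fkbp11 and Sdf2l1 by 0.28 and 0.24. Of the 7 named above, Os9 then differed by 0.37, Edem2 and Hyou1 by 0.34 each and P4hb by 0.13. Hspa5 and Manf, with the opposite order, differed by 0.21 and 0.078. The median over all members was then 0.11, and 0 passed. As the acinar mean itself differed by -0.886 between genotypes, this covariate cannot be fully separated from genotype. What acinar cells add to the members' differences was not tested. In bulk islets, fewer cells of a type and less RNA per cell cannot be told apart.

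Macrophage markers separated the genotypes, with a mean over 18 markers of 7.889 to 8.011 in hIAPP_Tg islets, against 6.933 to 7.083 in wild-type islets. Of the 18, 16 lay above 0 and 2 below, with a median difference of 1.08, and 2 passed the adjusted threshold. Itgam and Mrc1 were under the array median of 5.7. The part of macrophages in the members' differences was not tested. Beta-cell markers averaged 11.873 to 12.073 in hIAPP_Tg islets, against 12.145 to 12.227 in wild-type islets, over 11 of 13 genes, none of them under the array median of 5.7. Markers of other endocrine cells averaged 10.517 to 10.617, against 10.633 to 10.733, and those of endothelial cells 7.5 to 7.557, against 7.571 to 7.686. The means of these 3 lists were thus lower in hIAPP_Tg islets without overlap. Of the beta-cell markers 2 lay above 0 and 8 below, with a median difference of -0.17. Among other endocrine markers 1 lay above and 4 below, with a median of -0.083. Of the 7 endothelial markers 1 lay above and 3 below, with a median of 0, and Pecam1 and Tie1 were under the array median. The part of these cells in the members' differences was not tested. Markers of B cells and plasma cells averaged 5.0 to 5.157, against 5.043 to 5.271, both under the array median. All 37 members were above it.

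**Figure D5:**
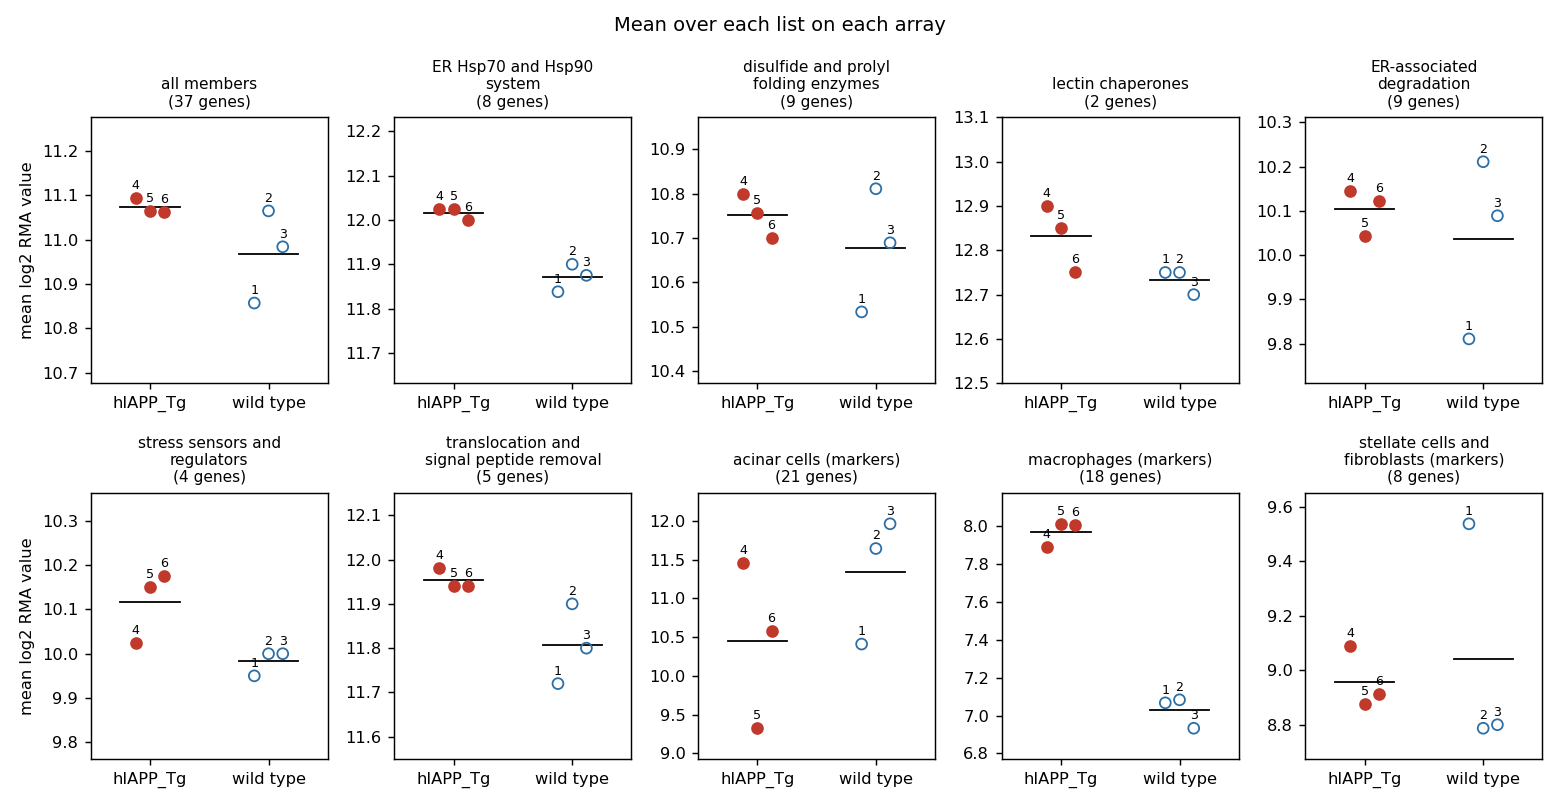
Mean log2 RMA value over each list on each array (vertical axes, each with its own range), with array numbers beside the points, hIAPP_Tg arrays filled and wild-type arrays open, and lines at the genotype means. Wild-type array 1 is low for all members and high for stellate markers, acinar markers spread within both genotypes, and macrophage markers separate the genotypes by 0.941.

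Other genes of the same pathway were read in the same way. Of 109 measured genes on 4 related lists, 79 lay above 0 and 21 below, with a median of 0.067, and 0 passed the adjusted threshold. At an unadjusted p under 0.05, 8 (7.34%) were higher and 0 lower, where 5.02% of all genes were higher and 3.45% were lower. Among the genes with a mean level within the range of the members, 7.79% were higher. Other ER folding genes (33 measured) had a median of 0.10, with 2 higher at that p, Sil1, an exchange factor of BiP, and the thiol-linked retention factor Erp44, each by 0.20. Other degradation genes (28 measured) had a median of 0.033, and the 2 higher at that p were Selenos, a selenoprotein that binds derlins (0.23), and Svip (0.17), an inhibitor of the pathway.

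Translocation and N-glycosylation genes (25 measured) had a median of 0.067. Ssr2, another subunit of the complex that holds Ssr1 and Ssr3, was at 10.3, 10.4 and 10.3 in hIAPP_Tg islets, against 10.0, 10.2 and 10.0 in wild-type islets. Its genotypes did not overlap (difference 0.27, SE 0.078, limma adjusted p = 0.552). Sec62, a translocon partner, differed by 0.17. The list of other regulators and the PERK, ATF4 and CHOP branch (23 measured) had a median of 0.067 as well. Atf3, a stress-induced transcription factor, differed by 0.33 from a wild-type level of 5.70, the array median (limma unadjusted p = 0.0205, adjusted p = 0.557). Over the related lists, genotypes did not overlap for 4 of 109 genes, Ssr2, Svip, Sec62 and Atf3, all higher in hIAPP_Tg islets. Higher without overlap were 4.49% of all genes and 6.85% of those in the same range of levels.

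Members with an ERSE or ERSE-II could be set beside those without. The 11 with either element had a median difference of 0.067, with 10 above 0 and 1 below, Derl3. The 21 with a window but neither element had a median of 0.10, with 17 above 0 and 2 below. All 4 members whose genotypes did not overlap, Dnajc10, Os9, Xbp1 and Ssr3, were among those 21.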

How the data were processed

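Islet RNA of 6 mice was labelled from 150 ng of total RNA per the labels and hybridised to Affymetrix mouse arrays. The submitters' processing notes name RMA and affy, without versions, as the source of the deposited log2 expression values. They run from 2.9 to 15.1 in steps of 0.1, with a median of 5.7 on every array. RMA compresses differences near both ends of the scale, and rounding makes genotype differences coarse. An array carries no read depth; having 3 per genotype limits the precision.

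After removal of 64 control probe sets, 45037 were fitted with limma 3.58.1 in R 4.3.3 (lmFit, eBayes, two-sided, no covariate, Benjamini-Hochberg over all). Gene names came from the platform annotation; 34945 probe sets had 1 symbol, 932 several and 9160 none here. Older list symbols were matched through RefSeq synonyms. Groups and array numbers came from the sample titles, and the genotypes share no number.

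The members, the role groups and the related and marker lists were chosen with earlier results of these data known, so no list was tested and counts are given beside those of all genes. All members are named; of each related list, up to 2 genes per direction with the smallest unadjusted p under 0.05 were named. The range of levels, the order of arrays within a genotype and the split by promoter element were chosen after values were seen. The fit was tested on simulated data with known changes, all larger than any member difference, so that test does not cover changes of the size reported here. Protein sequences were not used here. Tables and plots used Python 3.11.15 with matplotlib 3.10.9.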

Additional observations from a re-analysis of the deposited data

How the results depend on the processing

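Over 16 alternative settings, 0 of 592 recomputed member differences passed the adjusted threshold (smallest limma adjusted p = 0.384). The median difference of the members was 0.061 to 0.11 over 10 settings of scaling, filtering, prior, weights, covariate or probe set averaging, and 0.083 to 0.13 when arrays were left out in turn. Members at an unadjusted p under 0.05, in either direction, numbered 3 in the fit reported and 1 to 7 with an array left out. They numbered 0 with quantile normalization, 1 with the ordinary linear model, 5 with array quality weights, with averaged probe sets and with a robust prior, and 6 with the acinar covariate. Members without overlap of genotypes, in either direction, numbered 4, against 4 to 11 with an array left out and 1 with quantile normalization. The shares of all genes in these alternative settings were not counted for either measure. The sign turned for 14 members, in 30 of the 592 differences. With the acinar covariate these were Dnajc3 (-0.065), Creld2 (-0.021) and Derl3 (0.10), with array weights Sdf2l1 (-0.0072) and Syvn1 (-0.020), and with averaged probe sets Hsp90b1 (-0.18) and Fkbp11 (-0.022). With quantile normalization they were Sdf2l1 (-0.028), Creld2 (-0.033), Syvn1 (-0.017) and Sel1l (-0.011). With an array left out the ranges were -0.15 to 0.15 for Sdf2l1, -0.017 to 0.13 for P4hb, -0.17 to 0.28 for Fkbp11, -0.22 to 0.13 for Edem1 and -0.017 to 0.28 for Edem2. They were -0.033 to 0.22 for Sec11c, -0.20 to 0.20 for Syvn1, -0.52 to 0.033 for Derl3, -0.42 to 0.033 for Fkbp14 and -0.017 to 0.083 for Sel1l. For Wfs1 the range was -0.017 to 0.27, for Dnajc3 -0.083 to 0.27 and for Creld2 -0.033 to 0.067. The cause was not tested. No paired analysis was possible because the genotypes share no replicate number.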
